A study of Bos taurus with 6 samples.

Results

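The entries described here are miRNA names that are suspected to hold fragments of other structured RNAs, such as the U2 spliceosomal RNA, rRNA, tRNA or snoRNA. They were looked up by their miRBase names in the tables of extracellular vesicle (EV) miRNAs. Of the 8 names on the list, 7 were found among the 512 miRNAs that every library lists, namely bta-miR-1246 and bta-miR-2904, then bta-miR-11987, bta-miR-2478, bta-miR-2887, bta-miR-2881 and bta-miR-1291, and bta-miR-2892 had no value. The list was chosen by the dominance of an entry or its rise after heat stress (HS) in these same libraries, or by a suspected origin, so that levels and group differences are given here as a description. Calls from fits over all 512 miRNAs are reported, but they are no test of entries chosen on this contrast. Granulosa cells, the hormone-producing cells that surround the oocyte, were aspirated from small growing follicles of bovine ovaries collected at a slaughterhouse and cultured in medium with exosome-depleted serum. In the control group the cells stayed at 37 °C (control-EVs, 3 libraries), and in the HS group they were moved to 42 °C for 24 h (HS-EVs, 3 libraries). EVs were precipitated from the spent medium of either group with ExoQuick-TC. The sources used here do not say how many animals contributed to a culture, and the study calls the replicates biological without saying whether they came from separate animals. The origin of the EVs from granulosa cells was not checked against marker miRNAs.

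A miRNA is cut from a hairpin precursor by Drosha and Dicer and then guides Argonaute to target transcripts. Other abundant RNAs, such as tRNA, rRNA and small nuclear or nucleolar RNA, are also cut or degraded into short pieces, and a read of such a piece is counted as a miRNA where its sequence resembles an annotated entry. In humans, the entry miR-1246 has been discussed as a fragment of U2 small nuclear RNA, and the miR-1291 hairpin lies within a small nucleolar RNA that guides pseudouridylation. Such fragments are common in the RNA carried outside cells. The deposited tables hold names and values and no reads, and whether the reads counted here came from other RNAs was not tested.

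In RefSeq's gene table for the ARS-UCD2.0 assembly, which differs from the assembly of the authors, 7 of the 8 names on the list matched a miRNA gene, with 8 genes in all. Only names and neighbours are given, since the assemblies differ. bta-miR-2887 has 2 genes, whose products the counts do not tell apart. MIR2887-2 overlaps the pseudogene LOC112444681, and the genes that follow it are LOC112444653 and RN18S1, both annotated as rRNA. MIR1291 lies within KANSL2, which encodes a subunit of a histone acetyltransferase complex, and the gene before it is the small nucleolar RNA LOC112446866. MIR1246 follows the pseudogene LOC112448341 and is followed by SUCNR1, the succinate receptor. The direct neighbours of the others were protein-coding genes, pseudogenes or a long non-coding RNA. MIR2478 lies between NKAIN2 and TRDN, MIR11987 between the pseudogene LOC100300749 and ADGRB3, MIR2881 between FARSA and SYCE2, and MIR2892 between TMTC4 and the long non-coding RNA LOC132346727. bta-miR-2904 was the name without a match.

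Reads were recovered from the normalized counts (1 read being the smallest value above 0 of a library) and ranged from 274434 to 2360980 per library. In each library this total is higher than the number of miRNA-mapped reads that the study tabulates, for a reason not given in the sources used here, so that read counts, their intervals and the limit of detection hold only if 1 step is 1 read. In all libraries but control-EVs replicate 2, bta-miR-1246 alone was above that tabulated number. Whether this entry was counted alike in both was not tested, so that shares of all reads and ratios to bta-miR-1246 hold for the deposited values only, although the worth of a step cancels in them. HS-EVs replicate 1 stood apart. It had the most reads in all but the fewest on miRNAs other than bta-miR-1246, at 34141 against 73569 to 235634 in the other libraries. In it, 1 read was worth 4.11 normalized counts, against 0.697 to 1.98 in the other libraries, so that its normalized values are raised relative to its reads. For this reason each entry is given as a normalized count, as a share of all reads on miRNAs (reads per 1000000 reads on miRNAs, RPM), and as a ratio to bta-miR-1246 within a library, for which no scaling factor is needed. Intervals are 95% Wilson intervals and cover counting error only.

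bta-miR-1246 was ranked 1 of the 512 miRNAs in every library. For each read on any other miRNA, control-EVs replicates 1, 2 and 3 held 5.50, 1.49 and 2.73 reads of bta-miR-1246. In HS-EVs replicates 1, 2 and 3 the ratio was 68.2, 3.1 and 5.44. HS-EVs replicate 1 was far above the rest, and the other 2 HS-EVs libraries lay within the range of the control-EVs libraries. The mean ratio in control-EVs was 3.24 ± 2.05 (SD, n = 3) and that in HS-EVs was 25.6 ± 36.9 (SD, n = 3), so that the groups differed by less than the spread within HS-EVs. Together, the 7 entries took 72.6% ± 12.4 of the control-EVs reads and 86.2% ± 11.6 of the HS-EVs reads (SD, n = 3 each). Nearly all of this was bta-miR-1246. The other 6 entries summed to 0.0111% to 0.0237% of the reads in control-EVs and to 0.0239% to 0.0323% in HS-EVs, so that every HS-EVs library lay above every control-EVs library. The margin was narrow, with 121 reads in HS-EVs replicate 2 against 118 in control-EVs replicate 1, and entries in this sum had been chosen for their rise.

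**Figure D1:**
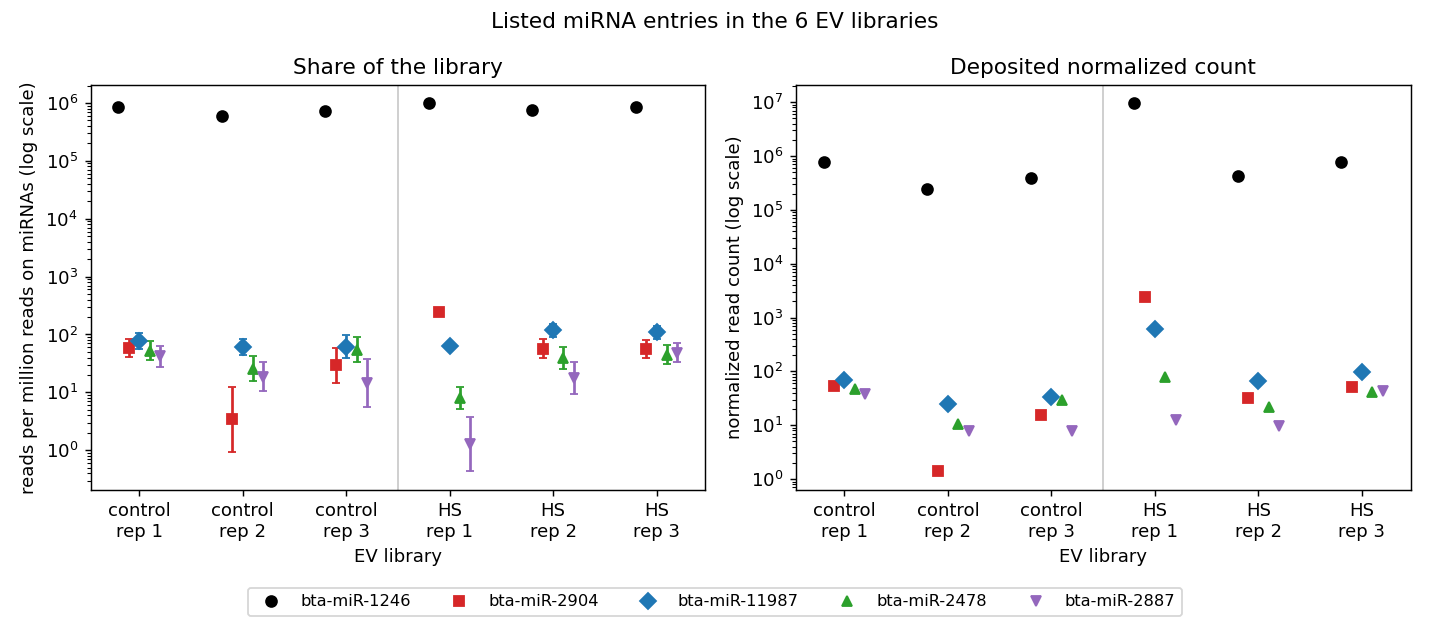
Levels of the 5 listed entries with a mean of 10 or more reads, for the 6 EV libraries on the x axis, as RPM with 95% Wilson intervals (left) and as deposited normalized counts (right), both on log axes. In HS-EVs replicate 1, bta-miR-2904 stands at 249 RPM and bta-miR-2887 at 1.27, while the normalized counts of bta-miR-2478, bta-miR-11987, bta-miR-1246 and bta-miR-2904 are each at their highest there.

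bta-miR-2904 is a bovine entry with few reads outside HS-EVs replicate 1. In the control-EVs libraries 1 to 3 it had 29, 2 and 8 reads, or 58.2, 3.40 and 29.2 RPM. In HS-EVs replicates 1 to 3 it had 589, 29 and 31 reads, or 249, 57.2 and 55.5 RPM (230 to 270 in replicate 1). The HS-EVs libraries other than replicate 1 thus lay just under the highest control-EVs library. By reads, bta-miR-2904 ranked 14 of 512 in HS-EVs replicate 1 and between 119 and 303 in the other libraries. Its mean share rested on these values, at 30.2 ± 27.4 RPM for control-EVs and 121 ± 111 for HS-EVs (SD, n = 3 each), and the difference was smaller than the SD of HS-EVs.

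As a share of reads, bta-miR-11987 was the most even of the listed entries after bta-miR-1246. In control-EVs replicates 1 to 3 it had 38, 36 and 17 reads, or 76.2, 61.2 and 61.9 RPM. In HS-EVs replicates 1 to 3 it had 149, 60 and 61 reads, or 63.1, 118 and 109 RPM. The raised libraries were therefore HS-EVs replicates 2 and 3, and HS-EVs replicate 1 lay among the controls. In normalized counts the order was another, with 612 in HS-EVs replicate 1 and 66.0 and 99.4 in replicates 2 and 3. The highest library exceeded the lowest 24.4-fold in normalized counts and 1.93-fold as a share of all reads.

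bta-miR-2478 and bta-miR-2887 had 15 to 26 and 3 to 27 reads per library, respectively. Across control-EVs replicates 1 to 3, bta-miR-2478 stood at 52.2, 25.5 and 54.7 RPM, and across the HS-EVs replicates at 8.05, 39.5 and 44.8. bta-miR-2887 stood at 42.1, 18.7 and 14.6 RPM in control-EVs and at 1.27, 17.8 and 48.4 in HS-EVs. For both entries HS-EVs replicate 1 was the lowest library by share, and the remaining libraries of the groups overlapped. On the scale of normalized counts HS-EVs replicate 1 was instead the highest library for bta-miR-2478, at 78.1 against 10.5 to 47.7 elsewhere, and within the range for bta-miR-2887, at 12.3 against 7.67 to 44.0 elsewhere.

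The remaining entries were at or near the limit of detection, taken as 3 reads. Across control-EVs replicates 1 to 3, bta-miR-1291 had 4, 1 and 5 reads, and across the HS-EVs replicates 2, 3 and 3 reads, too few for a comparison. bta-miR-2881 had 1 read in HS-EVs replicate 3 and 0 reads in the other libraries. In those, the limit of 3 reads stood at 1.27 to 10.9 RPM, and the upper end of the Wilson interval at 1.63 to 14.0 RPM.

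The study asked which miRNAs were released in different amounts under HS. With edgeR, it named bta-miR-2904, bta-miR-1246 and bta-miR-11987 among the miRNAs enriched in HS-EVs. In its digital PCR, bta-miR-1246 matched the sequencing and bta-miR-2904 did not. The limma fit used below was not the test of the study. In normalized counts, the control-EVs and HS-EVs libraries overlapped in all 7 entries, and they were apart in 6.45% of the 512 miRNAs. As a share of all reads 0 of the 7 entries and 4.88% of the 512 were apart, and per read on miRNAs other than bta-miR-1246 these figures were 0 of 7 and 6.84%. At the threshold of the study (adjusted p-value up to 0.3, with a log2 fold change of at least 1 in size), limma on log2(normalized count + 1) called 0 of the 512 miRNAs (0%) and so 0 of the 7 entries, with 25 of the 512 under an unadjusted p-value of 0.05. DESeq2 also called 0, with 10 under an unadjusted p-value of 0.05, and gave none for bta-miR-2904 or bta-miR-1246. On recovered reads, the quasi-likelihood test of edgeR called 3 of the 512 as higher in HS-EVs (0.586%), of which bta-miR-2904 and bta-miR-11987 are listed entries. With a mean-variance trend, limma called these 2 entries and no other miRNA (0.391%). Since the list was drawn up with this contrast known, nothing is read from these counts.

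The estimates followed the scaling and the model. The log2 fold change of bta-miR-1246 (limma, HS-EVs over control-EVs) was 1.79 (standard error 1.02) in normalized counts and 0.25 (0.63) with reads scaled by all reads. That of bta-miR-11987 was 2.0 (0.80) and 0.49 (0.64), and that of bta-miR-2904 was 3.63 (1.57) and 2.17 (1.04). For bta-miR-2478 the sign turned, from 0.72 (0.66) to -0.72 (0.81), and for bta-miR-2887 from 0.37 (0.74) to -0.79 (1.04). For bta-miR-1246, bta-miR-2904 and bta-miR-11987, edgeR gave 2.87, 5.18 and 2.53 and DESeq2 gave 2.96, 5.22 and 2.62. Over the 512 miRNAs, scaling by all reads moved the median log2 fold change from 0.01 to -0.69. Of the 5 entries, bta-miR-2904 was the farthest above that median on either scale, and bta-miR-2478 and bta-miR-2887 lay closest to it. Without HS-EVs replicate 1, the log2 fold changes in normalized counts were 0.43 for bta-miR-1246, 1.67 for bta-miR-2904, 1.04 for bta-miR-11987, 0.27 for bta-miR-2478 and 0.61 for bta-miR-2887.

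How far an entry followed bta-miR-1246 was then examined within HS-EVs replicate 1. For the 180 miRNAs with a mean of 10 or more reads, the share of reads in this library was divided by the median share in the other 5 libraries. The median of this ratio over the 180 miRNAs was 0.0586, in a library where bta-miR-1246 took 98.6% of the reads. The ratio was above 1 in 2 of the 180, both of them listed entries. Entries had been chosen for dominance or for a rise in HS-EVs, and this is an HS-EVs library. Their high places are therefore no test of the list. In descending order, bta-miR-2904 stood at 4.49, bta-miR-1246 at 1.30 and bta-miR-11987 at 0.828, while the next of the 180, bta-miR-133a, a muscle miRNA named here because of its place, stood at 0.306. bta-miR-2478 was at 0.180 and bta-miR-2887 at 0.0679, with place 69 of 180. The 17 canonical miRNAs taken for comparison, among them the let-7 family members, bta-miR-21-5p and bta-miR-26a, had a median of 0.0550 and a range from 0.0284 to 0.0925. The listed entries therefore did not move as a block in this library: bta-miR-2904 gained on bta-miR-1246, and bta-miR-11987 nearly kept its share. The place of bta-miR-2887 rests on 3 reads in this library, with an interval of 0.432 to 3.74 RPM, and nothing is read from it.

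**Figure D2:**
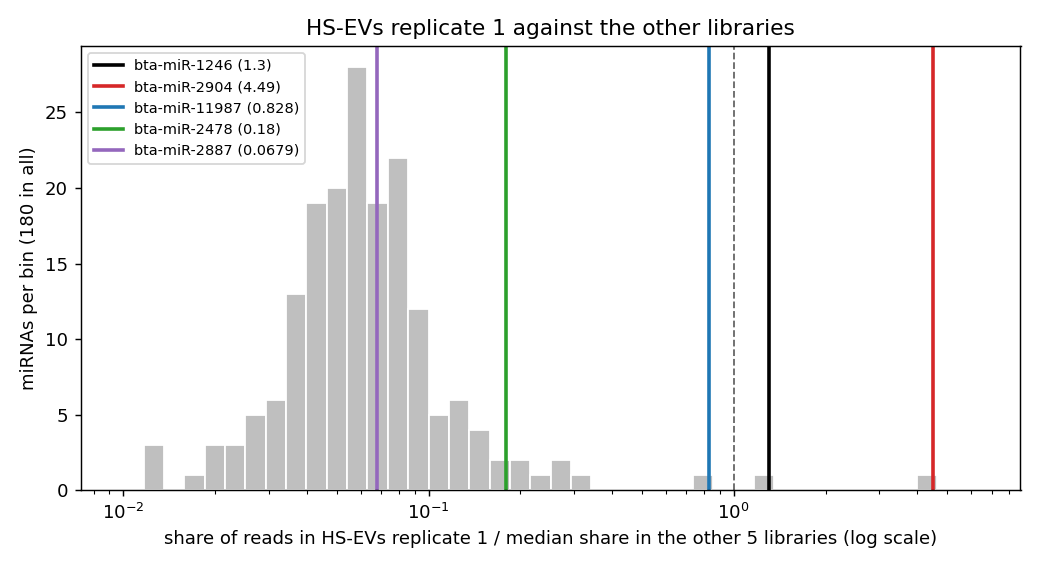
Number of miRNAs (y axis) by the share of reads in HS-EVs replicate 1 divided by the median share in the other 5 libraries (x axis, log scale), for the 180 miRNAs with a mean of 10 or more reads. Coloured lines mark the 5 listed entries, and the dashed line marks a ratio of 1: bta-miR-2904 (4.49) and bta-miR-1246 (1.30) lie above it, and the median of all is 0.0586.

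The ratio to bta-miR-1246 within a library does not depend on depth or on a scaling factor. Expressed as reads per 1000000 reads of bta-miR-1246, bta-miR-11987 had 90.1, 102 and 84.6 in the control-EVs libraries 1 to 3 and 64.0, 157 and 129 in the HS-EVs libraries 1 to 3. The highest of these values was 2.45 times the lowest. In log2 units the SD of this ratio over the 6 libraries was 0.46 for bta-miR-11987, the smallest of the 179 miRNAs compared, where the median was 1.98. bta-miR-2478 had place 3, with an SD of 1.16. Its ratios were 61.6, 42.6 and 74.7 in control-EVs and 8.17, 52.2 and 53.0 in HS-EVs, so that 5 libraries lay close together and HS-EVs replicate 1 was low.

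bta-miR-2904 had 68.8, 5.68 and 39.8 reads per 1000000 reads of bta-miR-1246 in control-EVs and 253, 75.7 and 65.8 in HS-EVs. The low value of control-EVs replicate 2 rests on 2 reads (interval 1.56 to 20.7). The SD of bta-miR-2904 was 1.80, with place 48 of 179, and without HS-EVs replicate 1 it had place 177, among the least even. For comparison, bta-let-7a-5p, a canonical miRNA, had 14183, 39396 and 22981 reads per 1000000 reads of bta-miR-1246 in control-EVs and 1154, 18282 and 13342 in HS-EVs, a 34.1-fold range. bta-miR-361, the reference miRNA of the study's digital PCR, had 842, 4006 and 1668 in control-EVs and 50.3, 1699 and 641 in HS-EVs, a 79.7-fold range. Without HS-EVs replicate 1 the ranges of bta-let-7a-5p and bta-miR-361 were 2.95-fold and 6.25-fold. Without HS-EVs replicate 1 the SD of bta-miR-11987 was 0.37, with place 13 of 179, where the median was 0.86, and bta-miR-2478 had place 8 at 0.30. The standing of bta-miR-11987 as the most even entry thus rests on HS-EVs replicate 1, where nearly every other miRNA fell against bta-miR-1246.

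**Figure D3:**
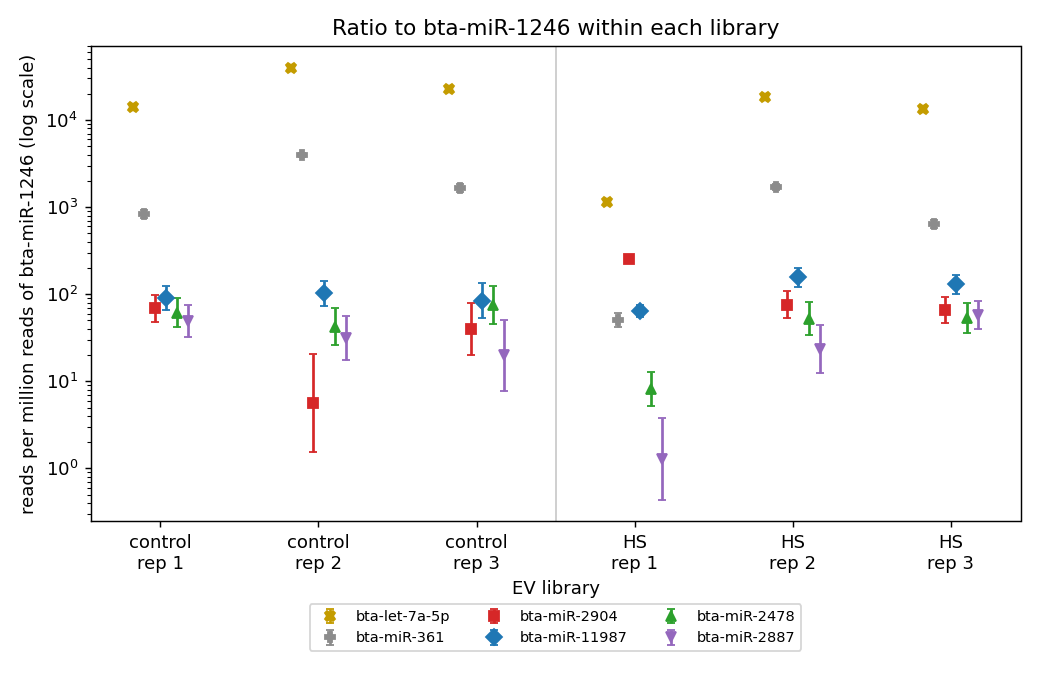
Reads per 1000000 reads of bta-miR-1246 (y axis, log scale) in the 6 EV libraries (x axis) for 4 listed entries and 2 canonical miRNAs, with 95% Wilson intervals. bta-miR-11987 stays between 64.0 and 157, while bta-let-7a-5p and bta-miR-361 drop in HS-EVs replicate 1 and bta-miR-2904 is at its highest there.

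Co-variation over the 6 libraries was described for the 5 entries with a mean of 10 or more reads, by Pearson's r on the log2 scale. No p-value is given, as the entries were chosen on these libraries. In normalized counts, bta-miR-1246, bta-miR-2904 and bta-miR-11987 varied together, with r = 0.97 between bta-miR-1246 and bta-miR-2904 (Spearman's rho 1), 0.98 for bta-miR-1246 and bta-miR-11987 (rho 0.94) and 0.98 for bta-miR-2904 and bta-miR-11987 (rho 0.94). Without HS-EVs replicate 1 (n = 5), these were 0.92, 0.89 and 0.90, and without the 2 libraries farthest from the median, control-EVs replicate 2 and HS-EVs replicate 1, 0.89, 0.76 and 0.92 (n = 4). bta-miR-2478 followed at r = 0.83 to 0.91 with these 3 entries, but without the 2 farthest libraries its r was 0.62 with bta-miR-2904 and 0.39 with bta-miR-11987, and 0.89 with bta-miR-1246. bta-miR-2887 had r = 0.18 with bta-miR-1246 over all 6 libraries and 0.93 without HS-EVs replicate 1. The median over the 10 pairs of listed entries was 0.84, and over all 16110 pairs of the 180 miRNAs it was 0.00, with 1.92% of the pairs above 0.9. Without HS-EVs replicate 1 these were 0.90, -0.001 and 4.09%.

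In normalized counts, the values of all entries in a library carry the same scaling factor, and its part in these correlations was not tested beyond the change of scale. As a share of all reads, bta-miR-1246 and bta-miR-2904 still correlated at r = 0.97 (rho 0.94; 0.94 without HS-EVs replicate 1, and 0.71 without the 2 farthest libraries), while bta-miR-11987 had r = 0.16 with bta-miR-1246 (0.57 without HS-EVs replicate 1). bta-miR-2478 and bta-miR-2887 had r = -0.38 and -0.37 with bta-miR-1246, and r = 0.88 with each other. Without HS-EVs replicate 1 these were 0.80, 0.70 and 0.27, so that the negative sign rests on this library. On this scale the median over all pairs of the 180 miRNAs was 0.93, with 60.1% of the pairs above 0.9, and the shares of a library add up to a fixed total. Without HS-EVs replicate 1 these were 0.54 and 15.75%. The pair of bta-miR-1246 and bta-miR-2904 was thus the pair of listed entries whose r was above 0.9 both in normalized counts and as a share of all reads. Per read on miRNAs other than bta-miR-1246, the median over the pairs of listed entries was 0.84, and over all pairs it was 0.03.

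**Figure D4:**
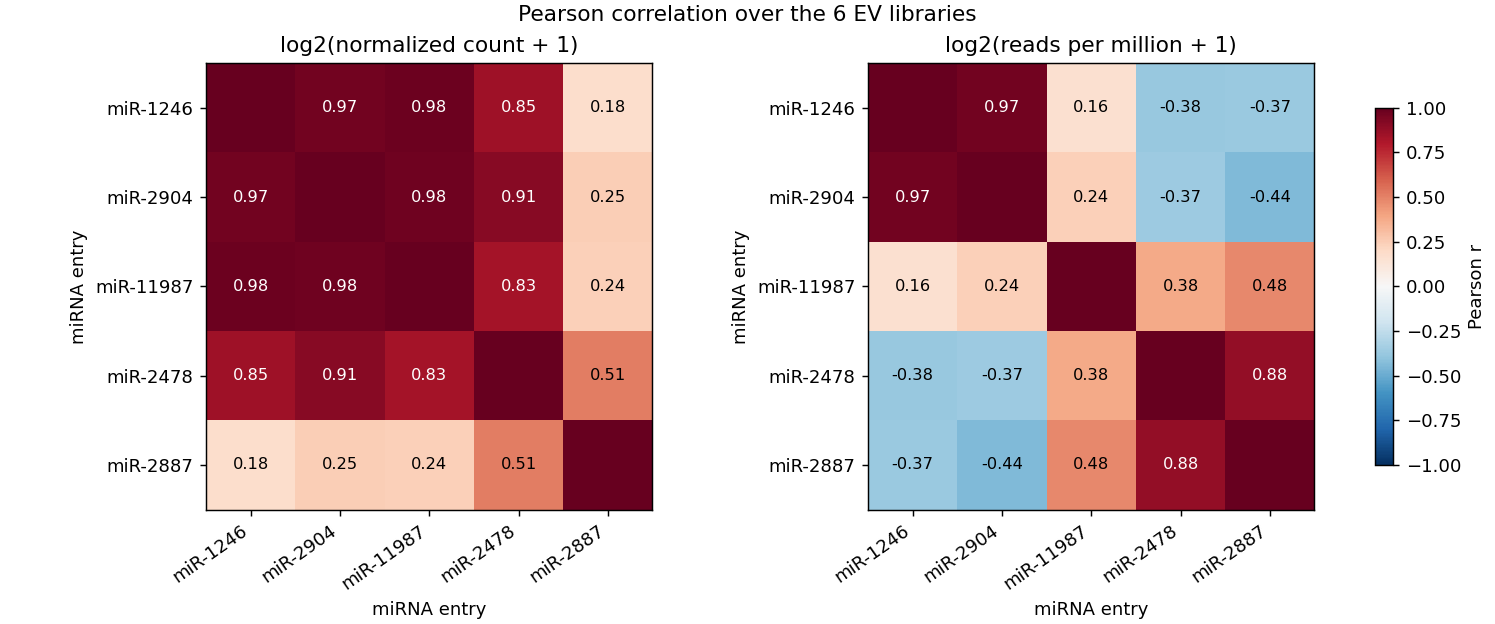
Pearson's r between the 5 listed entries over the 6 EV libraries on log2(normalized count + 1) (left) and on log2(RPM + 1) (right), with colour running from -1 to 1. bta-miR-1246 and bta-miR-2904 are at 0.97 on either scale, while bta-miR-2478 turns from 0.85 to -0.38 with bta-miR-1246 (0.95 and 0.80 without HS-EVs replicate 1).

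Among the 179 other miRNAs with a mean of 10 or more reads, the closest to bta-miR-1246 in normalized counts were bta-miR-11987 (r = 0.98), bta-miR-2904 (0.97) and bta-miR-339a (0.95). bta-miR-339a was also among the 3 closest to bta-miR-2904 (0.97) and to bta-miR-11987 (0.99). As a share of all reads, however, bta-miR-339a had r = -0.81 with bta-miR-1246. For bta-miR-2478 the closest were bta-miR-11976 (0.98), bta-miR-126-3p (0.96) and bta-miR-11975 (0.91), and by share these were 0.98, 0.96 and 0.96. For bta-miR-2887 they were bta-miR-12034 (0.95), bta-miR-574 (0.95) and bta-miR-12030 (0.91). None of the 3 closest of bta-miR-2478 or of bta-miR-2887 was a listed entry.

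Other miRNA entries related to snoRNA or tRNA by background knowledge were compared. In RefSeq's gene table, MIR664B lies within RAB3GAP2, MIR1260B within MAML2 and MIR1839 within MROH1, all protein-coding. No snoRNA or tRNA gene overlapped these genes there, so that the relation rests on background knowledge only. Of 5 such names, bta-miR-664a and bta-miR-1248 had no value. bta-miR-664b had 1 read in all, in control-EVs replicate 2, and bta-miR-1260b, an entry related to tRNA, had 0 to 5 reads per library. bta-miR-1839 had 157, 549 and 103 reads in the control-EVs libraries 1 to 3 and 68, 388 and 163 in the HS-EVs libraries 1 to 3. Its mean normalized count was 292 ± 89.7 for control-EVs and 324 ± 89.3 for HS-EVs (SD, n = 3 each), which differ by less than either SD. In HS-EVs replicate 1 its share was 0.0767 times the median of the other libraries, within the range of the canonical miRNAs, so that this entry did not follow bta-miR-1246. Of the reads other than bta-miR-1246, the 17 canonical miRNAs took 37.2% ± 1.45 in the control-EVs libraries and 39.5% ± 3.34 in the HS-EVs libraries (SD, n = 3 each). The 6 listed entries other than bta-miR-1246 took 0.0276% to 0.154% of these reads in control-EVs and 2.23%, 0.0980% and 0.171% in HS-EVs replicates 1, 2 and 3.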

How the data were processed

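Small RNA of 6 EV libraries was sequenced by the authors with QIAseq adapters that carry unique molecular identifiers (UMIs). Per the labels and the methods, reads were handled with cutadapt 1.11, collapsed by UMI, mapped with Bowtie2 2.2.2 to the bovine genome (UMD3.1) and to miRBase, and normalized with edgeR's TMM factors. The authors deposited 1 normalized count (a signal that is never negative) per miRNA and library. Mapping a short read to miRNA entries cannot tell a miRNA from a fragment of another RNA with the same sequence.

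In each library, the deposited values were multiples of the smallest one above 0 (100% of them whole within 0.001), and this step was taken as 1 read. The step may be worth more or less than 1 read, since the recovered totals exceed the miRNA-mapped reads tabulated by the study. Groups and replicate numbers came from the sample titles. All 512 miRNAs were fitted with limma 3.58.1 (R 4.3.3) on log2(normalized count + 1) with Benjamini-Hochberg adjustment, which understates fold changes of low entries. As alternatives, the recovered reads were fitted with edgeR 4.0.16 and DESeq2 1.42.0. The limma and edgeR fits were also run on simulated data, whose outcome is not given here. No library pair of the 15 had counts alike within sampling noise (lowest chi-square per degree of freedom 18.8). The miRNAs named were the listed entries, 5 other entries related to snoRNA or tRNA by background knowledge, 17 canonical miRNAs and, for each entry with a mean of 10 or more reads, the 3 most correlated miRNAs. Members and lists were chosen with earlier results of these data known. The ratio to bta-miR-1246, the scaling by its reads, the share of reads other than bta-miR-1246 without HS-EVs replicate 1 and the correlations without the 2 farthest libraries were added after the values were seen. No mature sequences were used here.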

Additional observations from a re-analysis of the deposited data

How the results depend on the processing

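The number of miRNAs past the threshold of the study was 0 in limma and also with the other scalings, pseudocount 5, the filter on mean reads and DESeq2. It was 3 with edgeR's quasi-likelihood test, 2 with limma's trend and 1 with pseudocount 0.5, and between 0 and 4 with each library left out (4 without control-EVs replicate 2, 2 without HS-EVs replicate 1 and 3 without HS-EVs replicate 2). bta-miR-2904 and bta-miR-11987 were among the calls of edgeR and of limma's trend, and 0 listed entries were among those with a library left out. With the replicate number as a block it was 0, and the share of reads on the 7 entries was higher in HS-EVs by 13.6 ± 2.24 percentage points (SD, n = 3 pairs). Same-numbered libraries deviated together by r = 0.14, 0.14 and 0.08, and the sources do not say what a number shares, so that they were not treated as pairs. The share on the 7 entries was nevertheless highest in replicate 1 and lowest in replicate 2 of either group. The block changed no call. It lowered the standard error of the log2 fold change from 1.57 to 0.75 for bta-miR-2904 and from 1.02 to 0.66 for bta-miR-1246. For bta-miR-11987 it fell from 0.80 to 0.51 and for bta-miR-2478 from 0.66 to 0.41, while for bta-miR-2887 it was 0.74 and 0.75. With each library left out, the difference in share on the 7 entries lay between 7.32 and 19.7 percentage points. For the 6 entries other than bta-miR-1246, the log2 ratio of the mean shares was 0.65 on all reads (0.41 to 0.93 with each library left out) and 3.33 on reads other than bta-miR-1246 (0.70 there without HS-EVs replicate 1). The median r over the pairs of listed entries was 0.84 in normalized counts, 0.20 as a share of all reads (0.62 there without HS-EVs replicate 1), 0.91 by Spearman, 0.88 without the 2 farthest libraries and 0.84 to 0.90 in normalized counts with each library left out. Log2 fold changes of bta-miR-1246, bta-miR-2904 and bta-miR-11987 were above 0 in all 17, 18 and 18 alternatives, and those of bta-miR-2478 and bta-miR-2887 in 16 and 14 of 18. The alternatives reuse the libraries in which entries had been chosen for their rise, so that a steady sign is no test of it. The 5 entries were also refitted with each library left out. With each library left out, log2 fold changes ranged from 0.43 to 2.68 for bta-miR-1246, 1.67 to 4.77 for bta-miR-2904 and 1.04 to 2.63 for bta-miR-11987, lowest without HS-EVs replicate 1 and highest without HS-EVs replicate 2. Without control-EVs replicate 2, bta-miR-2904 was at 2.41. Leaving out control-EVs replicate 2 moved the log2 fold change of bta-miR-2478 to 0.13, and that of bta-miR-2887 ranged from -0.27 without HS-EVs replicate 3 to 1.09 without control-EVs replicate 1. Depth limits bta-miR-2887, bta-miR-1291 and bta-miR-2881, and also bta-miR-2904, which had 2 reads in control-EVs replicate 2.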

Other observations

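Beside bta-miR-11987 and bta-miR-2478, the miRNAs whose ratio to bta-miR-1246 varied least over the 6 libraries were bta-miR-11980 (SD of 1.05 in log2 units, place 2 of 179), bta-miR-126-3p (1.17, place 4), an endothelial miRNA, and bta-miR-11976 (1.24, place 5), all named after their values were seen. Without HS-EVs replicate 1 they had places 30, 11 and 21, with SDs of 0.49, 0.36 and 0.44. bta-miR-126-3p and bta-miR-11976 are also the miRNAs closest to bta-miR-2478 in normalized counts. In HS-EVs replicate 1, the share of bta-miR-11980 was 0.270 times the median of the other libraries.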
